A study of Mus musculus with 15 samples.

Results

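Lymph node mesenchymal cells sorted as PDPN+BP3+ were compared with thymic mesenchymal cells sorted as PDPN+BP3-. These populations filled 6 of the 15 arrays of the study, 3 each, and were chosen by their sort labels. The study profiled 5 mesenchymal populations, all sorted as PDGFRβ+ cells from C57BL/6 mice aged 2 weeks, on Affymetrix Mouse Gene 1.1 ST arrays, which read RNA along whole transcripts. BP3, encoded by Bst1, is a membrane enzyme of lymphoid stroma, and podoplanin (PDPN) is a membrane glycoprotein of fibroblastic stroma. Each array held amplified RNA from a separate pool in 3 individual experiments. A thymus pool came from 3 mice, whereas a lymph node pool (inguinal, brachial and axillary nodes) came from 10 to 11 mice and tissue and pool size cannot be told apart. Tissue and BP3 status both differed in this comparison, and their parts in a difference cannot be told apart either. The third podoplanin-positive population, lymph node PDPN+BP3- cells, shared the tissue of one side and the BP3 status of the other, and its 3 arrays are set beside the values without a test because they belong to neither side.

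Podoplanin-positive stromal cells of lymph nodes build the reticular scaffold that lymphocytes crawl on, and they supply the chemokines and survival factors that place and maintain T cells and B cells. BP3, CXCL13, MAdCAM-1 and RANKL mark reticular cells at the outer rim of B cell follicles, and lymphotoxin maintains CXCL13-producing stroma. Fibroblasts of the thymic capsule and septa also carry podoplanin, and adventitial fibroblasts of many organs are known for Pi16, Cd34, Dpp4 and an elastic, collagen-rich matrix.

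The table gave log2 signals from 1.07 to 12.07 with a median of 3.8 over all arrays. A value below that median need not stand above background, and on the log2 scale a difference of 1 is a 2-fold step. Of 24758 rows, 18718 genes were tested, each by its row with the highest mean. Array-to-array correlations were 0.994 to 0.995 within the lymph node PDPN+BP3+ arrays, 0.987 to 0.992 within the thymus arrays and 0.931 to 0.94 between them. Thymus PDPN+BP3- replicate 1 stood apart: its median signal was 3.58, where the others lay between 3.77 and 3.885, and it had the smallest spread of values (SD 2.168). The counts over all genes are also given without it, and a gene list whose count moved by over 1.5 times on leaving out an array is given with that array named.

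In limma's test with Benjamini-Hochberg adjustment, 5348 genes (28.6%) passed an adjusted p of 0.05. Of these, 3638 (19.4%) were higher in the lymph node cells and 1710 (9.14%) were lower. Counts of gene lists are to be read beside these shares, since a list near them had no more calls than genes at large. The calls that also differed by at least 1 on the log2 scale numbered 1765 (9.43%), with 1040 (5.56%) higher and 725 (3.87%) lower. The balance between directions moved with thymus replicate 1 and with scaling. The share of calls that were higher was 68.0% as deposited, 57.0% without that array (2552 higher, 13.6% of genes, and 1922 lower, 10.3%) and 47.4% after cyclic loess scaling (2290 higher, 2539 lower). Of the genes past the threshold by at least 1, 1029 of the 1040 higher and 723 of the 725 lower passed without thymus replicate 1. That count asked for the same direction but not for a difference of at least 1. With that limit applied again, 872 genes were higher and 826 lower without that array. After cyclic loess, 722 were higher and 922 lower by at least 1. The arrays of the populations did not overlap for 7271 genes (38.8%), among them 1758 of the 1765. The lower of the compared means lay below the table median for 763 of the 1765 genes, so the size of those differences depends on signals near the low end. In sorted bulk RNA, fewer cells expressing a gene and less RNA per cell cannot be told apart.

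**Figure D1:**
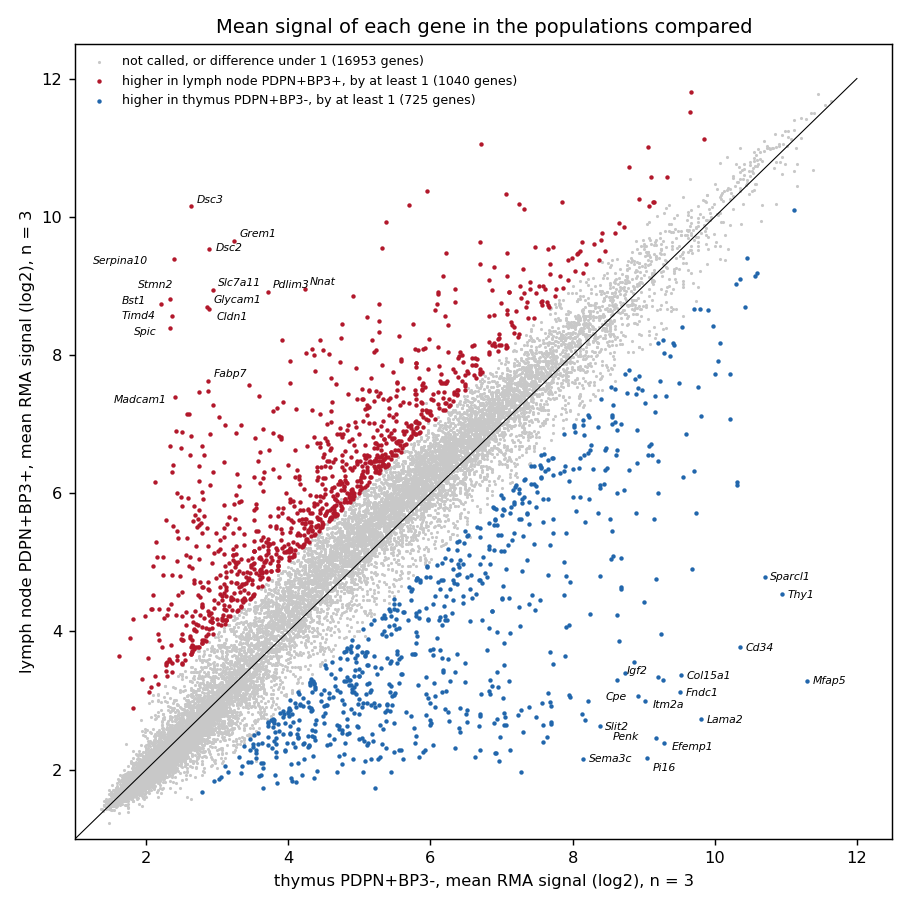
Mean RMA signal (log2) of each of 18718 genes in lymph node PDPN+BP3+ cells (vertical axis, 3 arrays) against thymus PDPN+BP3- cells (horizontal axis, 3 arrays). Red points mark the 1040 genes called higher by at least 1 and blue points the 725 called lower by at least 1, grey points all others, the line marks equal signal, and the 15 genes with the largest difference in each direction are named.

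The sort antigen genes went with the labels. Bst1 read 8.94, 8.71 and 8.56 on the lymph node PDPN+BP3+ arrays and 2.08, 2.23 and 2.32 on the thymus arrays, a difference of 6.53 ± 0.18 (SE), which checks the sort and is no finding. On the lymph node PDPN+BP3- arrays it read 3.80, 3.03 and 3.06, nearer to the thymus values. Pdpn, which both populations were sorted for, differed by -0.32 ± 0.13 (SE) with an adjusted p of 0.09 in the limma fit, and after cyclic loess the difference was -0.59 with an adjusted p of 0.00548. Pdgfrb differed by 0.07 ± 0.11 (adjusted p = 0.715) and Enpep, which encodes BP-1, a separate antigen with a similar name, by 0.13 ± 0.18 (adjusted p = 0.673). The Pdpn arrays did not overlap, at 8.78, 8.89 and 8.71 against 9.01, 9.14 and 9.19, as was so for 38.8% of all genes.

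The other marker genes separated the populations. Where signals are given as one set against another, the lymph node PDPN+BP3+ arrays come first and the thymus arrays second, in replicate order. Cxcl13, the chemokine that draws B cells into follicles, read 10.47, 10.88 and 10.82 on the lymph node arrays against 8.64, 8.51 and 9.26 on the thymus arrays, higher by 1.92 ± 0.23 (SE, adjusted p = 8.39e-06), and 8.85, 9.16 and 8.64 on the lymph node PDPN+BP3- arrays. Pi16, a secreted peptidase inhibitor of adventitial fibroblasts, read 2.12, 2.21 and 2.18 against 8.88, 9.24 and 9.02, a difference of -6.88 ± 0.28 (SE, adjusted p = 2.12e-11). Ret, the receptor tyrosine kinase for the GDNF family, read 4.19, 4.48 and 4.51 against 7.24, 7.55 and 7.39, a difference of -3.0 ± 0.14 (SE, adjusted p = 8.61e-11). The arrays of the compared populations did not overlap for any of the 4 marker genes, of which Bst1 was used for the sort. The same held for 38.8% of all genes. Cxcl13 was well above the table median on the thymus arrays too, so its difference was one of level, while Bst1 and Pi16 each lay below the median on one side. Ret read 2.73, 2.52 and 2.32 on the lymph node PDPN+BP3- arrays, below both compared populations.

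**Figure D2:**
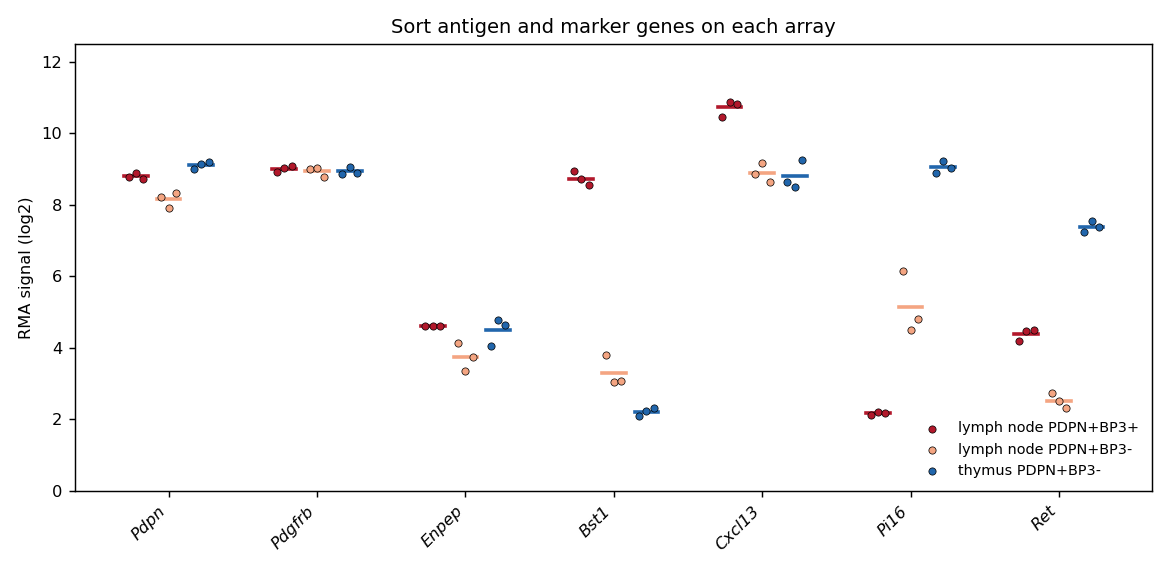
RMA signal (log2) of the sort antigen and marker genes on each of 9 arrays; points are arrays and bars are the mean of 3. Lymph node PDPN+BP3+ and thymus PDPN+BP3- means differed by under 1 for Pdpn, Pdgfrb and Enpep, while Bst1, Cxcl13, Pi16 and Ret differed by more, and the arrays did not overlap for these 4 or for Pdpn. Arrays did not overlap for 38.8% of all genes.

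The genes with the largest differences included junction, secreted and matrix genes. Dsc3, a desmosomal cadherin, read 10.22, 10.19 and 10.03 on the lymph node arrays and 2.66, 2.58 and 2.66 on the thymus arrays, higher by 7.51 ± 0.13 (SE, adjusted p = 1.59e-15). Dsc2, another desmosomal cadherin, read 9.47, 9.61 and 9.51 against 2.57, 3.06 and 3.0, higher by 6.65 ± 0.15 (SE, adjusted p = 2.13e-14). Serpina10, the inhibitor of coagulation factors Xa and XIa, read 9.42, 9.34 and 9.42 against 2.40, 2.29 and 2.47, higher by 7.01 ± 0.10 (SE, adjusted p = 3.19e-16). In each case all thymus arrays were at the low end and all lymph node arrays were high. Lymph node PDPN+BP3- cells lay between, at a mean of 6.02 for Dsc3, 4.64 for Dsc2 and 5.88 for Serpina10.

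Stmn2, a microtubule-destabilising protein best known from neurons, was higher by 6.48 ± 0.16 (SE, adjusted p = 5.76e-14), with 9.19, 8.71 and 8.54 on the lymph node arrays and 2.16, 2.42 and 2.43 on the thymus arrays. Grem1, a secreted BMP antagonist of lymph node reticular cells, read 9.60, 9.67 and 9.67 against 3.17, 3.16 and 3.39, higher by 6.41 ± 0.12 (SE, adjusted p = 4.84e-15). Timd4, a phosphatidylserine receptor, read 8.35, 8.76 and 8.60 against 2.28, 2.36 and 2.45, higher by 6.21 ± 0.18 (SE, adjusted p = 3.53e-13). Lymph node PDPN+BP3- cells were near the PDPN+BP3+ side for Grem1 (mean 7.35) but near the thymus side for Stmn2 (2.88) and Timd4 (3.70). Spic, an ETS family transcription factor of splenic macrophages, differed by 6.05, and Slc7a11, the cystine-glutamate exchanger, by 6.0. Glycam1, the L-selectin ligand of high endothelial venules, differed by 5.85 ± 0.91 (SE, adjusted p = 0.00012) and read 8.48, 8.60 and 9.01 against 2.77, 2.77 and 3.0. It was higher still in lymph node PDPN+BP3- cells (mean 9.88), and it is a product of high endothelial cells, whose marker list is given further on.

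Cldn1, a tight junction claudin, was higher by 5.78 ± 0.18 (SE, adjusted p = 7.56e-13) with a lymph node PDPN+BP3- mean of 9.01. Pdlim3, a Z-disc adaptor of muscle, differed by 5.20 and Fabp7, a fatty acid carrier, by 4.76. Nnat, an imprinted neuronal proteolipid gene, differed by 4.74. Madcam1, the mucosal addressin that integrin α4β7 binds, read 7.03, 7.73 and 7.42 against 2.44, 2.33 and 2.45, higher by 4.99 ± 0.25 (SE, adjusted p = 2.62e-10), and its lymph node PDPN+BP3- mean was 3.45. Among the highest 15, Cldn1 and Glycam1 were high on the arrays of both lymph node populations, whereas Stmn2, Timd4, Slc7a11 and Fabp7 were low in lymph node PDPN+BP3- cells.

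On the thymus side, Mfap5, a microfibril-associated glycoprotein, read 11.07, 11.42 and 11.40 on the thymus arrays and 3.31, 2.90 and 3.66 on the lymph node arrays, a difference of -8.01 ± 0.20 (SE, adjusted p = 6.82e-14). Lama2, the laminin alpha chain of muscle and mesenchymal basement membranes, read 2.69, 2.85 and 2.64 against 9.58, 9.98 and 9.87, and Efemp1, a fibulin of elastic fibres, 2.41, 2.25 and 2.50 against 9.33, 9.47 and 9.06. Their differences were -7.08 ± 0.16 (SE, adjusted p = 2.13e-14) and -6.90 ± 0.22 (SE, adjusted p = 9.13e-13). For each of these genes all lymph node PDPN+BP3+ arrays were low while all thymus arrays were high. Penk, the precursor of enkephalins, differed by -6.72, Cd34, a sialomucin of adventitial stroma and vessels, by -6.58, and Thy1 by -6.41. Fndc1, a fibronectin type III domain protein, differed by -6.40, Col15a1, a basement membrane collagen, by -6.16, Itm2a by -6.03 and Sema3c, a secreted semaphorin, by -5.99. Igf2, the fetal insulin-like growth factor, read 9.0, 9.41 and 9.41 on the thymus arrays and 3.16, 3.52 and 3.23 on the lymph node arrays, a difference of -5.97 ± 0.17 (SE, adjusted p = 2.35e-13). Sparcl1, Cpe and Slit2 differed by -5.91, -5.86 and -5.76.

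Lymph node PDPN+BP3- cells carried many of these genes. Their Mfap5 mean was 10.77, Lama2 8.53, Efemp1 7.91, Penk 8.70 and Cpe 8.92, all near the thymus values. Slit2 (4.89, 3.76 and 3.59 on the lymph node PDPN+BP3- arrays) and Pi16 were nearer to the PDPN+BP3+ level. Among the 142 genes lower by at least 3, the lymph node PDPN+BP3- mean lay between the compared means for 118 and was nearer to the thymus for 86. Among the 91 higher by at least 3, it lay between for 80 and was nearer to the thymus for 56.

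Cxcl13, Ccl19 and Cxcl12 lay above the table median on every array of both populations and were higher in the lymph node cells. Of 7 homeostatic chemokines and scavenging receptors measured, 4 were higher and 3 lower (median difference 1.92, against 0.04 over all genes). Ccl19, which attracts T cells and dendritic cells, read 11.73, 11.80 and 11.89 on the lymph node arrays and 9.63, 9.64 and 9.75 on the thymus arrays, higher by 2.13 ± 0.12 (SE, adjusted p = 7.4e-10). Cxcl12, the CXCR4 ligand, read 10.23, 10.0 and 10.11 against 6.92, 7.60 and 7.40, higher by 2.81 ± 0.14 (SE, adjusted p = 3.41e-10). Cxcl16 was higher by 2.83 ± 0.15 (SE, adjusted p = 3.29e-10). The 3 lower members were Cxcl14 (-3.31) and the scavenging receptors Ackr2 (-2.95) and Ackr3 (-2.12). Of 16 inflammatory chemokines, 4 were higher, Cxcl2 (2.04), Cxcl9 (1.39), Ccl2 (1.08) and Cxcl1 (1.08), and 6 were lower (median -0.29). Ccl25, the thymocyte-attracting chemokine of thymic epithelium, differed most, with 6.87, 8.18 and 7.98 on the thymus arrays and 3.83, 3.43 and 3.85 on the lymph node arrays, a difference of -3.97 ± 0.40 (SE, adjusted p = 1.06e-06). The epithelial list was higher on the thymus arrays too, as given further on, and its part in this value was not tested.

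Of 12 lymphocyte and myeloid growth and survival cytokines, 6 were higher in the lymph node cells and 3 lower (median 0.31). Il7, needed by naive T cells, read 7.60, 7.46 and 7.31 on the lymph node arrays and 2.53, 2.90 and 2.83 on the thymus arrays, higher by 4.70 ± 0.17 (SE, adjusted p = 4.72e-12). Tnfsf11, encoding RANKL, read 6.90, 7.26 and 7.27 against 2.02, 3.58 and 2.21, higher by 4.54 ± 0.31 (SE, adjusted p = 1.03e-08), and Tnfsf13b, encoding BAFF, 7.71, 7.44 and 7.39 against 4.82, 5.27 and 4.99, higher by 2.49 ± 0.16 (SE, adjusted p = 3.29e-09). No array of either side overlapped the other for these 3 genes, as was so for 38.8% of all genes. Kitl (1.25) and Il33 (1.0) were higher by less. Il34, a ligand of the CSF1 receptor, was lower, with a difference of -3.18 ± 0.18 (SE, adjusted p = 8.41e-10), with 6.55, 5.74 and 5.75 against 9.28, 9.06 and 9.25. Il15 (-1.25) and Tnfsf10 (-0.64) completed the lower members.

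Of 19 genes of the lymphotoxin and TNF receptor pathway, 11 were higher and 3 lower (median 0.80). Tnfrsf1b, the second TNF receptor, read 7.68, 7.36 and 7.46 against 5.19, 5.59 and 5.82 and was higher by 1.97 ± 0.19 (SE, adjusted p = 6.22e-07). Birc2, a ubiquitin ligase of the pathway, was higher by 1.81 ± 0.16 (SE, adjusted p = 3.05e-07), and Tnfaip3, a deubiquitinase that dampens it, by 1.57 ± 0.20 (SE, adjusted p = 1.18e-05). Map3k14, the kinase of the alternative NF-κB pathway, was higher by 1.28 and the inhibitor gene Nfkbie by 1.23. Tnfrsf19, a TNF receptor family member of progenitor cells, was lower, at 2.91, 2.46 and 2.99 against 6.97, 7.45 and 7.26, a difference of -4.44 ± 0.14 (SE, adjusted p = 8.19e-13). Tnfrsf11b, the decoy receptor for RANKL (-1.84), and Cd40 (-0.86) were lower too. Ltbr, the lymphotoxin receptor itself, did not pass (-0.25), and Tnfrsf1a did not either (0.12). Without thymus replicate 1 the count was 10 higher and 3 lower.

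Lymphotoxin and TNF receptors signal through NF-κB. The promoters of Madcam1 and of 3 NF-κB feedback and subunit genes higher in the lymph node cells are shown because they hold a match to the letters searched, so the matches in them are no finding. Nfkb2 and Nfkbia were picked after their values were seen (0.95 and 1.16). The letters searched were GGGNNNTTCC on either strand, with the reverse complement GGAANNNCCC, in the 300 bases from 250 before to 50 after the start given in RefSeq (build GRCm38.p6), and capitals mark each match.
Nfkb2 (+ strand, chr19:46304487-46304786): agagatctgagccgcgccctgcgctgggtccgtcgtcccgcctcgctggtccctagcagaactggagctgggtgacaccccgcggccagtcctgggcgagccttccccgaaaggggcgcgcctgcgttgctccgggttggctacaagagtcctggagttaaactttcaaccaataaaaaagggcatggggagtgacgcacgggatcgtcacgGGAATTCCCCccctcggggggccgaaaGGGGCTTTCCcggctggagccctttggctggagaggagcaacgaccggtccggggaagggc
Nfkbia (- strand, chr12:55492598-55492897): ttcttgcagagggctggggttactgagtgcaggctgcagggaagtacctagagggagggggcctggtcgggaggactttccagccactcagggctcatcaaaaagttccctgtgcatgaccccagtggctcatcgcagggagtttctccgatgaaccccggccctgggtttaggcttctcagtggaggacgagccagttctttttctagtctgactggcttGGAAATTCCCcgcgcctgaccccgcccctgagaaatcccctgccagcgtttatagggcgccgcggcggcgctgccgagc
Tnfaip3 (- strand, chr10:19015361-19015660): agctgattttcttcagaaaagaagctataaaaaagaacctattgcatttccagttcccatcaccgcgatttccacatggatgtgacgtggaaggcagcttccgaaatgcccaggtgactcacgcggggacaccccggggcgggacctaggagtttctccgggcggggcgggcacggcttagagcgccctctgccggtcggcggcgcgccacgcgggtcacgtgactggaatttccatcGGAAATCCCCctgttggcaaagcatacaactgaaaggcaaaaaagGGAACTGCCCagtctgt
Madcam1 (+ strand, chr10:79664309-79664608): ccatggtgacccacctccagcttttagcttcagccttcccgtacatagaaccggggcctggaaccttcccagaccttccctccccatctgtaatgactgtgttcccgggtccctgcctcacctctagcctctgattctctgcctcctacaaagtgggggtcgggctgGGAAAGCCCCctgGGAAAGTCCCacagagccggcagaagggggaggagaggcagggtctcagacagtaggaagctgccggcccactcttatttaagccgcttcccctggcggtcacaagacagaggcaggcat
The letters stood in 5.5% of 27025 promoters in the table, in 7.1% of 815 promoters of genes called higher by at least 1 and in 3.8% of 529 called lower by at least 1. They stood in 5 of 10 promoters of pathway members called higher that have an entry (50.0%) and in 1 of 6 of the other members. Besides the 3 shown, Rel and Nfkbie held a match, and the 5 without one were Tnfrsf1b, Map3k14, Traf1, Birc2 and Birc3. A looser search tried first (GGGNNNNNCC) hit 50.4% of all promoters and 8 of 10 promoters of pathway members called higher (80.0%). It was dropped for its high share over all promoters, so the stricter letters were chosen after a first result was seen. A match is a description of the letters in these windows. Cxcl13 and Pi16 had no match, which says only that these letters are not in their windows.

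Of 13 leukocyte adhesion ligands, 5 were higher and 5 lower. Besides Madcam1 and Glycam1, Vcam1, which binds integrin α4β1, was higher by 1.88 ± 0.13 (SE, adjusted p = 1.65e-08), and Icam1, the LFA-1 ligand, by 1.33 ± 0.20 (SE, adjusted p = 6.98e-05). Vcam1 read 9.46, 9.58 and 9.54 against 7.43, 7.75 and 7.77. On the other side, Sele, the E-selectin gene of activated endothelium, was lower, with a difference of -4.57 ± 0.25 (SE, adjusted p = 8.32e-10), with 4.69, 3.97 and 4.62 against 8.62, 9.13 and 9.24, and Cd34 as given. Follicular dendritic cell genes, a program of CXCL13-producing stroma, were higher for 6 of 12 and lower for 2 (median 0.79); the list includes Bst1, which the sort used. Clu read 11.13, 11.0 and 11.02 against 6.42, 6.57 and 7.14, higher by 4.34 ± 0.22 (SE, adjusted p = 3.18e-10), and Mfge8, which tags apoptotic cells, was higher by 1.27 ± 0.10 (SE, adjusted p = 6.67e-08). The defining members Cr2 (0.32), Fcer2a (-0.03) and Coch (-0.04) did not pass; Cr2 and Fcer2a encode receptors of mature follicular dendritic cells. The lower members were Tmem119 (-2.90) and Fcgr2b (-0.59). Only 1 was lower without lymph node PDPN+BP3+ replicate 1 or 3 or without thymus replicate 2, where Fcgr2b had adjusted p-values of 0.0547, 0.0569 and 0.0511 in the limma fit.

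Adventitial fibroblast genes had the lowest median of the lists, -2.46, with 16 of 20 lower in the lymph node PDPN+BP3+ cells and 3 higher. Their mean signal was 5.37, 5.26 and 5.33 on those arrays and 7.92, 8.33 and 8.23 on the thymus arrays. On the lymph node PDPN+BP3- arrays it was 7.58, 7.21 and 7.41, nearer to the thymus. Beside Pi16, Efemp1, Cd34, Thy1 and Sema3c, Igfbp6, an IGF-binding protein of fibroblasts, differed by -5.33 ± 0.16 (SE, adjusted p = 4.96e-13) and the peptidase Dpp4, added after its value was seen, by -5.33 ± 0.23 (SE, adjusted p = 3.58e-11). Dpp4 read 7.79, 8.34 and 8.27 on the thymus arrays and 2.65, 3.02 and 2.73 on the lymph node arrays. Cd55, the complement regulator, was lower, with a difference of -2.32. The 3 higher members were Procr, the protein C receptor (2.85 ± 0.18, adjusted p = 4.39e-09), Il33 (1.0) and Igfbp5 (0.77), and Gli1, a hedgehog target of adventitial progenitors, did not pass (-0.17). Without thymus replicate 1 the counts of this list were again 16 and 3. Thy1 is also a thymocyte gene, and the T lineage list was higher on the thymus arrays. Thymus replicate 1, where the mean of that list was 3.28 against 4.30 and 4.42 on the other thymus arrays, had a Thy1 signal of 10.92 against 10.97 and 10.96. The part of T lineage RNA in the Thy1 difference was not tested.

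Of 22 pericyte and smooth muscle genes, 12 were higher and 5 lower (median 0.66). Rgs5, a regulator of G-protein signals in pericytes, read 9.46, 9.43 and 9.51 against 5.94, 6.45 and 6.27 and was higher by 3.25 ± 0.12 (SE, adjusted p = 3.82e-12). Myh11, smooth muscle myosin, read 7.65, 7.44 and 7.66 against 4.66, 4.85 and 4.50, higher by 2.91 ± 0.16 (SE, adjusted p = 6.72e-10). Acta2, smooth muscle actin, was higher by 2.37 ± 0.12 (SE, adjusted p = 1.77e-10), and its partner Tagln by 2.61 ± 0.14 (SE, adjusted p = 4.12e-10). The lymph node PDPN+BP3- means were intermediate, at 8.08 for Rgs5 and 6.19 for Myh11. The lower members were Ndufa4l2 (-2.67), Higd1b (-1.36), Smtn (-1.29), Cspg4 (-0.89) and Trpc6 (-0.43). Higd1b and Cspg4, which mark pericytes, thus differed in the opposite direction to Rgs5. The Trpc6 call was lost without any one lymph node PDPN+BP3+ array and without thymus replicate 2 or 3 (adjusted p = 0.0628 to 0.136 in the limma fit).

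Matrix genes were more often lower. Among 31 collagen chains 19 were lower in the lymph node PDPN+BP3+ cells and 2 higher, with a median of -0.46. Col15a1 and Col8a1 led; Col8a1, a short-chain collagen of vessel walls, read 2.39, 2.42 and 2.82 against 6.95, 7.72 and 7.22, a difference of -4.75 ± 0.20 (SE, adjusted p = 3.61e-11). The higher ones were Col28a1 (1.75) and Col12a1 (0.90). Elastic fibre and microfibril genes had 12 of 16 lower and 1 higher (median -1.13), the latter Ltbp2 (1.63), named in the latent TGF-β binding protein family. The list mean was 5.89 to 6.1 on the lymph node PDPN+BP3+ arrays and 7.75 to 8.05 on the thymus arrays. On the lymph node PDPN+BP3- arrays it was 7.29 to 7.46, nearer to the thymus. Emilin2 (-4.78), an elastic fibre interface protein, and the fibulin Fbln1 (-3.52) followed Mfap5 and Efemp1. Small leucine-rich proteoglycans had 10 of 14 lower and 2 higher (median -1.31). Lum, which spaces collagen fibrils, read 5.62, 6.42 and 6.43 against 10.13, 10.44 and 10.37, a difference of -4.16 ± 0.27 (SE, adjusted p = 4.23e-09), whereas Fmod, a proteoglycan of the same family that binds the same collagens, read 10.16, 9.80 and 9.81 against 5.27, 5.38 and 5.50, higher by 4.54 ± 0.18 (SE, adjusted p = 1.45e-11). Fmod and Lum therefore split this family in opposite directions, and lymph node PDPN+BP3- cells had both high (means 8.47 and 10.03).

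Laminins, nidogens and other basement membrane genes had 10 of 15 lower and 5 higher (median -0.77), with 3 higher without thymus replicate 2. Lama5, the alpha chain of vessel and epithelial basement membranes, and Lama3 were higher by 2.65 ± 0.18 (SE, adjusted p = 1.01e-08) and 2.40 ± 0.15 (SE, adjusted p = 2.41e-09), opposite to Lama2. Hspg2, the heparan sulfate proteoglycan perlecan, was lower, with a difference of -1.90, and Ntn4, a netrin that binds laminin, differed by -1.42. Thrombospondins, tenascins and the SPARC family had 6 of 20 higher and 8 lower. Tnc, tenascin C, and Tnn, tenascin N, were higher by 2.37 ± 0.14 (SE, adjusted p = 1.67e-09) and 2.86 ± 0.17 (SE, adjusted p = 2.18e-09), while Sparcl1 and Smoc2 (-4.56) were lower. Matrix proteases and inhibitors had 12 of 23 lower and 2 higher, led by Mmp3 (-3.33), a stromelysin. Gpc3, a glypican that restrains hedgehog signals, was lower, with a difference of -5.34 ± 0.15 (SE, adjusted p = 2.43e-13). It read 3.24, 3.59 and 3.38 against 8.42, 8.85 and 8.95. Its lymph node PDPN+BP3- mean was 9.87, above the thymus mean of 8.74. The glypican and syndecan list had 1 higher and 3 lower of 10. The higher call of that list was lost without thymus replicate 1 or 2, without lymph node PDPN+BP3+ replicate 1 or 3 and after cyclic loess (0 higher each time), and 2 were higher without thymus replicate 3.

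Of 22 desmosome and tight junction genes 7 were higher and 3 lower (median -0.07), and the 3 largest were among the 15 genes highest of all. After Dsc3, Dsc2 and Cldn1 came Dsg2 (3.33 ± 0.21, adjusted p = 3.41e-09), a desmoglein, and F11r (2.85), the junctional adhesion molecule A. The plaque genes were not higher: Dsp, which anchors desmosomes to keratin, was lower, with a difference of -1.56, and Jup (-0.35), Pkp1 (-0.11), Pkp2 (-0.31) and Pkp3 (-0.08), named after their values were seen, did not pass. Jam2, another junctional adhesion molecule, was lower, with a difference of -3.21 ± 0.26 (SE, adjusted p = 6.27e-08). Integrins and cadherins had 8 of 27 higher, including Cdh4 (2.23) and Itga6 (2.16), a laminin receptor subunit, and 7 lower, led by Itga8, the nephronectin receptor subunit (-4.68 ± 0.20, adjusted p = 3.45e-11).

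**Figure D3:**
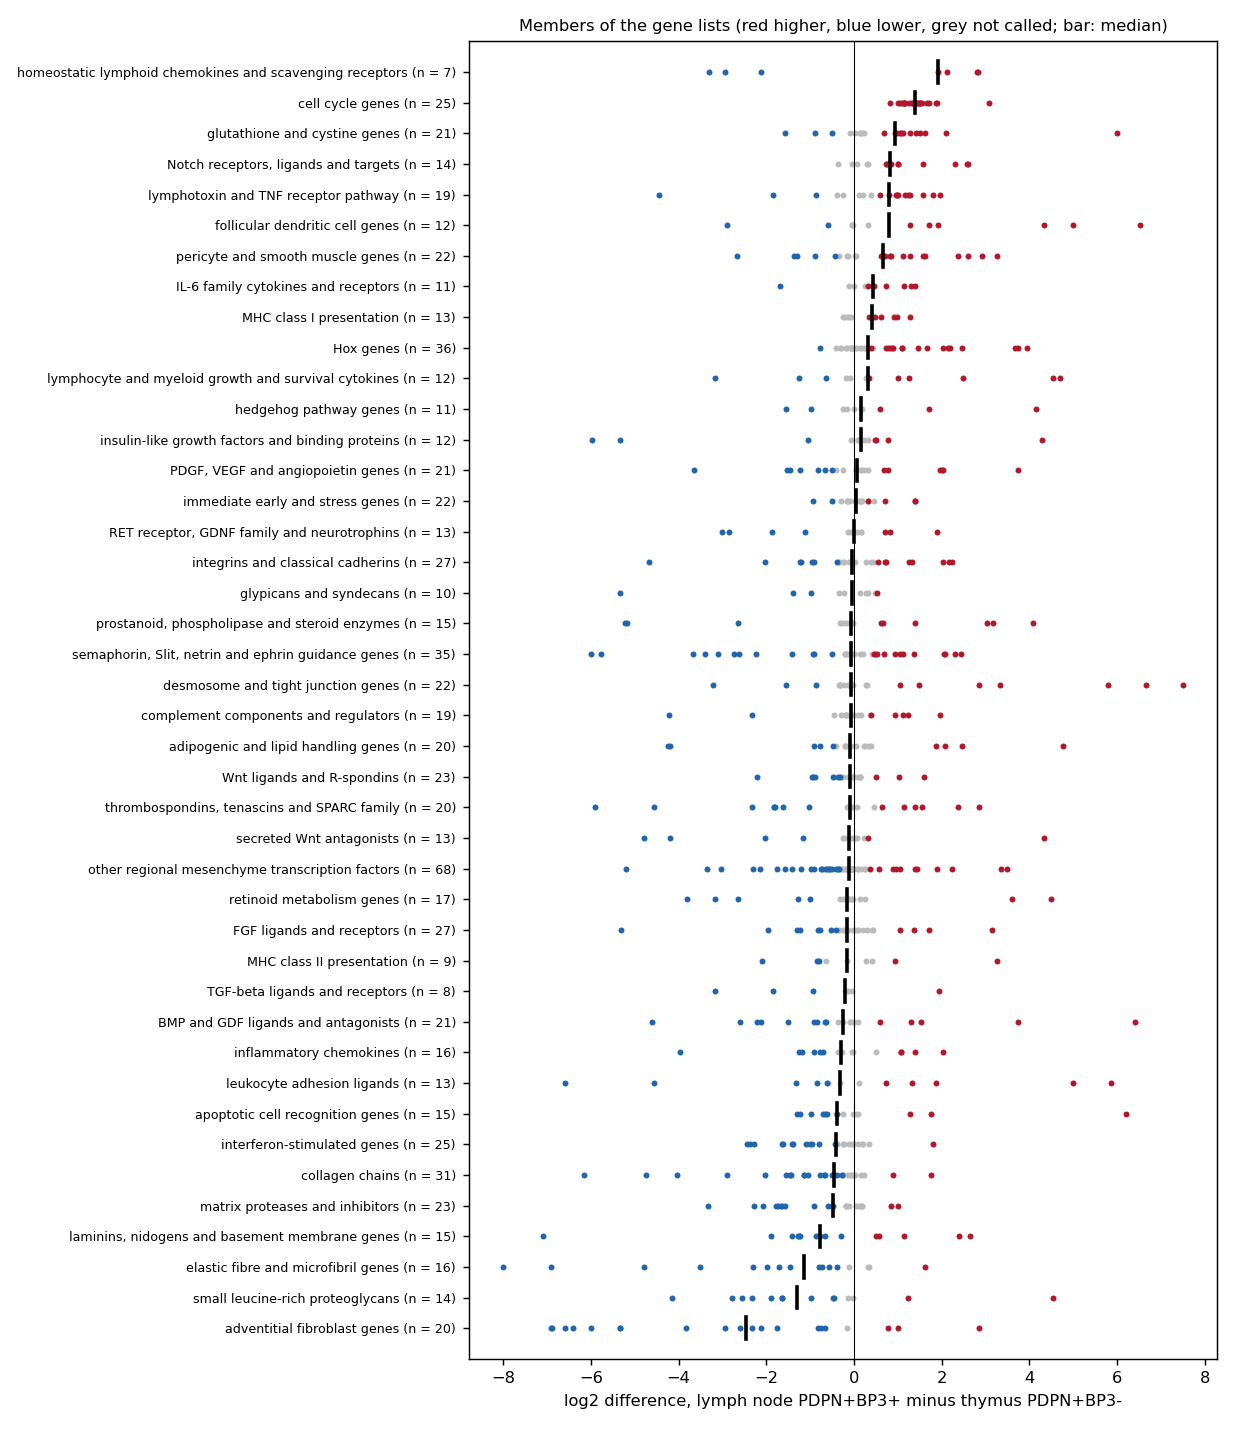
Difference on the log2 scale (lymph node PDPN+BP3+ minus thymus PDPN+BP3-) of each measured member of the gene lists, with lists ordered by their median, which the black bar marks. Red points are members called higher, blue points called lower and grey points not called; cell cycle genes are all to the right of 0 and adventitial fibroblast genes mostly to the left.

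Of 27 FGF ligands and receptors 4 were higher and 8 lower (median -0.15), against 19.4% higher and 9.14% lower over all genes. Fgf10, a mesenchymal growth factor for epithelium, read 1.86, 2.08 and 1.93 against 7.13, 7.35 and 7.33, a difference of -5.31 ± 0.11 (SE, adjusted p = 1.92e-14), and Fgf7, which signals to the same receptor on epithelium, differed by -1.95. Fgfr4 was higher by 3.14 ± 0.16 (SE, adjusted p = 2.57e-10). The lymph node PDPN+BP3- mean of Fgf10 was 5.94. Among 12 insulin-like growth factor genes 4 were higher and 3 lower, with Igfbp2 (4.29 ± 0.28, adjusted p = 5.23e-09) opposite to Igf2 and Igfbp6. The count of higher was 2 without any one array other than thymus replicate 2 and after cyclic loess, with 3 lower again, so which direction held more calls moved with these choices. The PDGF, VEGF and angiopoietin list had 6 of 21 higher, led by Pgf, placental growth factor (3.75 ± 0.21, adjusted p = 1.09e-09), with Angpt2 (2.04), Pdgfa (2.01) and Vegfa (1.95), and 7 lower, led by Pdgfd (-3.64).

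BMP and GDF genes had 5 of 21 higher and 9 lower (median -0.24). Gdf10 was lower, with 3.04, 2.70 and 3.17 against 7.60, 7.43 and 7.67, a difference of -4.60 ± 0.14 (SE, adjusted p = 8.69e-13), and Bmp4 differed by -2.13 ± 0.22 (SE, adjusted p = 1.31e-06). Among the 5 higher members, after Grem1 came Chrdl1, a chordin family antagonist, higher by 3.75 ± 0.21 (SE, adjusted p = 1.16e-09). In lymph node PDPN+BP3- cells the Chrdl1 mean was 9.49 and the Gdf10 mean 8.06. The other higher members were the ligand genes Bmp3 (1.53) and Bmp6 (0.59), and Bambi (1.29). Bmp6 was not called without thymus replicate 1 (0.47, adjusted p = 0.102 in the limma fit). Bmper, which restrains BMP signals, was lower (-1.50), so neither ligands nor antagonists all went one way. Among secreted Wnt antagonists, 4 of 13 were lower, led by Sfrp4 (-4.78) and Dkk2 (-4.20), and 2 higher (1 without any one lymph node PDPN+BP3+ array or thymus replicate 2), of which Sostdc1, an antagonist of BMP and Wnt signals, read 6.35, 6.79 and 6.89 against 2.30, 2.33 and 2.38, higher by 4.34 ± 0.14 (SE, adjusted p = 1.13e-12). Wnt ligands and R-spondins had 3 of 23 higher (Wnt11 1.60, Rspo1 1.03, Wnt6 0.50) and 7 lower, led by Wnt2 (-2.21). The count of lower was 4 without thymus replicate 1 and without lymph node PDPN+BP3+ replicate 1 or 3. Wnt6 had an adjusted p of 0.0503 in the limma fit without lymph node PDPN+BP3+ replicate 1. TGF-β genes had Tgfb2 (-3.16), Tgfbr1 (-1.84) and Eng (-0.93) lower and Tgfbi (1.94) higher of 8. Without thymus replicate 1 the count of lower was 4, and after cyclic loess it was 6.

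All called members of the Notch list were higher: 9 of 14 passed, and none was lower (median 0.81), with 8 higher and 1 lower after cyclic loess and 1 lower without lymph node PDPN+BP3+ replicate 2. Hey1 and Hey2, transcription factors induced by Notch, were higher by 2.59 ± 0.12 (SE, adjusted p = 1.35e-10) and 2.58 ± 0.20 (SE, adjusted p = 4.98e-08). Hey1 read 7.56, 7.23 and 7.49 against 4.67, 4.96 and 4.89, Hey2 5.15, 4.81 and 5.10 against 2.39, 2.53 and 2.39, and the ligand Dll4 5.83, 5.76 and 5.95 against 3.31, 3.44 and 3.90, higher by 2.30 ± 0.18 (SE, adjusted p = 6.27e-08). The receptor Notch3 was higher by 1.57 and Jag1 by 1.01. Of 11 hedgehog pathway genes 3 were higher and 2 lower (2 and 3 after cyclic loess). The list had Hhip, an inhibitor and target of hedgehog signals, higher by 4.16 ± 0.16 (SE, adjusted p = 7.09e-12) and Ptch1 by 1.71, while Gas1 (-1.56) and Boc (-0.98), both co-receptors, were lower. Of 35 guidance genes, 12 were higher, among them Plxna4 (2.44 ± 0.15, adjusted p = 3.28e-09) and Robo2 (2.31 ± 0.23, adjusted p = 7.47e-07), and 12 lower, among them Slit2, Slit3 (-3.39) and Sema3a (-3.09). The ligand Slit2 and its receptor Robo2 thus differed in opposite directions.

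Of 13 RET, GDNF family and neurotrophin genes 3 were higher and 4 lower. Beside Ret, the co-receptor Gfra1 (-1.12) and the neurotrophin receptors Ntrk3 (-2.84) and Ntrk2 (-1.86) were lower. Ngfr, the low-affinity neurotrophin receptor of follicular stroma, was higher by 1.90. The ligand genes Gdnf (0.16) and Nrtn (0.16), named after their values were seen, did not pass. Among IL-6 family genes 7 of 11 were higher (5 without thymus replicate 1, 4 after cyclic loess), including Lif (1.39) and Cntfr (1.31), and Il6 was lower, with a difference of -1.69 ± 0.31 (SE, adjusted p = 0.000473).

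Slc7a11 led the glutathione and cystine list, in which 12 of 21 were higher and 3 lower (median 0.94); it read 9.02, 8.82 and 8.98 against 2.96, 2.66 and 3.20, higher by 6.0 ± 0.20 (SE, adjusted p = 1.8e-12). Gpx3, a secreted glutathione peroxidase, was higher by 2.09, and Gclm, the regulatory subunit of glutathione synthesis, by 1.41. In retinoid metabolism 2 of 17 were higher and 5 lower. Lrat, which esterifies retinol for storage, read 6.51, 7.24 and 6.96 against 2.62, 2.41 and 2.24, higher by 4.48 ± 0.19 (SE, adjusted p = 3.56e-11), and Cyp26b1, which degrades retinoic acid, 6.90, 6.91 and 6.79 against 3.20, 3.16 and 3.43, higher by 3.60 ± 0.13 (SE, adjusted p = 4.07e-12). Aldh1a1, which makes retinoic acid, was lower, with a difference of -3.80 ± 0.24 (SE, adjusted p = 4.64e-09), and the receptor gene Rarb differed by -3.17. The storage and breakdown genes and the synthesis gene therefore differed in opposite directions.

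Prostanoid, phospholipase and steroid enzymes had 6 of 15 higher and 3 lower. Pla2g5, a secreted phospholipase, was higher by 4.09 ± 0.14 (SE, adjusted p = 1.76e-12), and Ch25h, which makes the B cell and dendritic cell positioning oxysterol precursor, by 3.17 ± 0.25 (SE, adjusted p = 5.06e-08). Ch25h read 7.97, 7.85 and 7.88 against 4.18, 4.56 and 5.46. Hpgd, which inactivates prostaglandins, was higher by 3.03 ± 0.24 (SE, adjusted p = 4.59e-08). Ptgis, prostacyclin synthase, was lower, with a difference of -5.17 ± 0.20 (SE, adjusted p = 9.57e-12), and Hsd11b1, which activates glucocorticoids, differed by -5.22 ± 0.29 (SE, adjusted p = 7.14e-10). Lipid handling genes had Fabp7, Cebpa (2.46), Lepr (2.08) and Apoe (1.87) higher and Ebf2 (-4.23) and Apod (-4.19) lower among 4 higher and 5 lower of 20. The count of lower was 2 without lymph node PDPN+BP3+ replicate 3 and 3 without lymph node PDPN+BP3+ replicate 2 or thymus replicate 3.

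MHC class I genes had 7 of 13 higher and none lower as deposited, 4 higher without thymus replicate 1 or lymph node PDPN+BP3+ replicate 1, and 3 higher and 3 lower after cyclic loess, and the direction of the list moves with scaling. Psmb8, an immunoproteasome subunit, differed by 1.28. Class II genes had 2 of 9 higher, Ctss, a lysosomal protease, by 3.27 ± 0.25 (SE, adjusted p = 3.03e-08), and H2-Ab1 by 0.93, and 3 lower. The H2-Ab1 call was lost without thymus replicate 1 (difference 0.62, adjusted p = 0.143 in the limma fit), after cyclic loess (0.66, adjusted p = 0.0825) and without any one lymph node PDPN+BP3+ array (adjusted p = 0.0588, 0.0685 and 0.0644). Without thymus replicate 1, and after cyclic loess, the class II list had 1 higher and 4 lower. Without lymph node PDPN+BP3+ replicate 1 or 2 it had 1 higher, and without lymph node PDPN+BP3+ replicate 3 or thymus replicate 3 it had 1 lower. H2-Aa was lower, with 4.73, 4.82 and 4.08 against 5.57, 6.88 and 7.48, a difference of -2.10 ± 0.35 (SE, adjusted p = 0.000243). Among the thymus arrays it was lowest on replicate 1, as the T lineage and epithelial lists were. Lists of other kinds were lowest there too, such as adventitial fibroblast genes (7.92 against 8.33 and 8.23) and inflammatory chemokines (6.08 against 6.3 and 6.49). The shared low value is therefore not particular to the T lineage and epithelial lists. Interferon-stimulated genes were lower for 12 of 25 and higher for 1 (median -0.42). Ifit3 was lower, with a difference of -2.43 ± 0.16 (SE, adjusted p = 6.7e-09), and Rtp4 differed by -2.36 ± 0.16 (SE, adjusted p = 9.93e-09). Usp18, which restrains interferon receptor signalling, was higher by 1.81 ± 0.17 (SE, adjusted p = 4.83e-07). Complement genes had 5 higher and 2 lower of 19, against 19.4% and 9.14% over all genes. Masp1, a lectin pathway protease, was lower, with a difference of -4.22 ± 0.11 (SE, adjusted p = 1.34e-13). C4a (1.95), Cfi (1.24) and C2 (1.11) were higher, and both Cfi means lay below the table median. Apoptotic cell recognition genes had Timd4, Gas6 (1.75) and Mfge8 higher and 7 of 15 lower, with Axl (-1.31) leading.

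Positional genes separated the populations by paralog group. Hox genes encode the transcription factors that record position along the body axis. Of 36 measured, 17 were higher in the lymph node cells and 1, Hoxa2, was lower (-0.77). The Hoxa2 call was lost without lymph node PDPN+BP3+ replicate 2 or thymus replicate 2 (adjusted p = 0.0522 and 0.0510 in the limma fit). Of all Hox genes 0 were lower without lymph node PDPN+BP3+ replicate 2, and 2 were lower without thymus replicate 3 and after cyclic loess. All 17 lay in paralog groups 4 to 10 (17 of 21 measured, median 1.09), and none of the 7 in groups 1 to 3 or the 8 in groups 11 to 13 was higher. Both compared means lay below the table median for each gene of groups 11 to 13, so a difference there could hardly be seen. The division into these ranges was not tested. Hoxc8 read 6.39, 6.31 and 6.20 against 2.44, 2.33 and 2.30, higher by 3.94 ± 0.21 (SE, adjusted p = 4.42e-10). Hoxc6 read 6.49, 6.36 and 6.80 against 2.51, 2.88 and 3.04, higher by 3.74 ± 0.19 (SE, adjusted p = 2.62e-10), and Hoxd9 6.88, 6.95 and 7.15 against 3.55, 3.25 and 3.21, higher by 3.66 ± 0.19 (SE, adjusted p = 3.53e-10). The lymph node PDPN+BP3- means, 5.73, 6.16 and 6.08, stood near the PDPN+BP3+ level for each. Hoxc9 (2.46) and Hoxa6 (2.20) completed the largest differences.

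**Figure D4:**
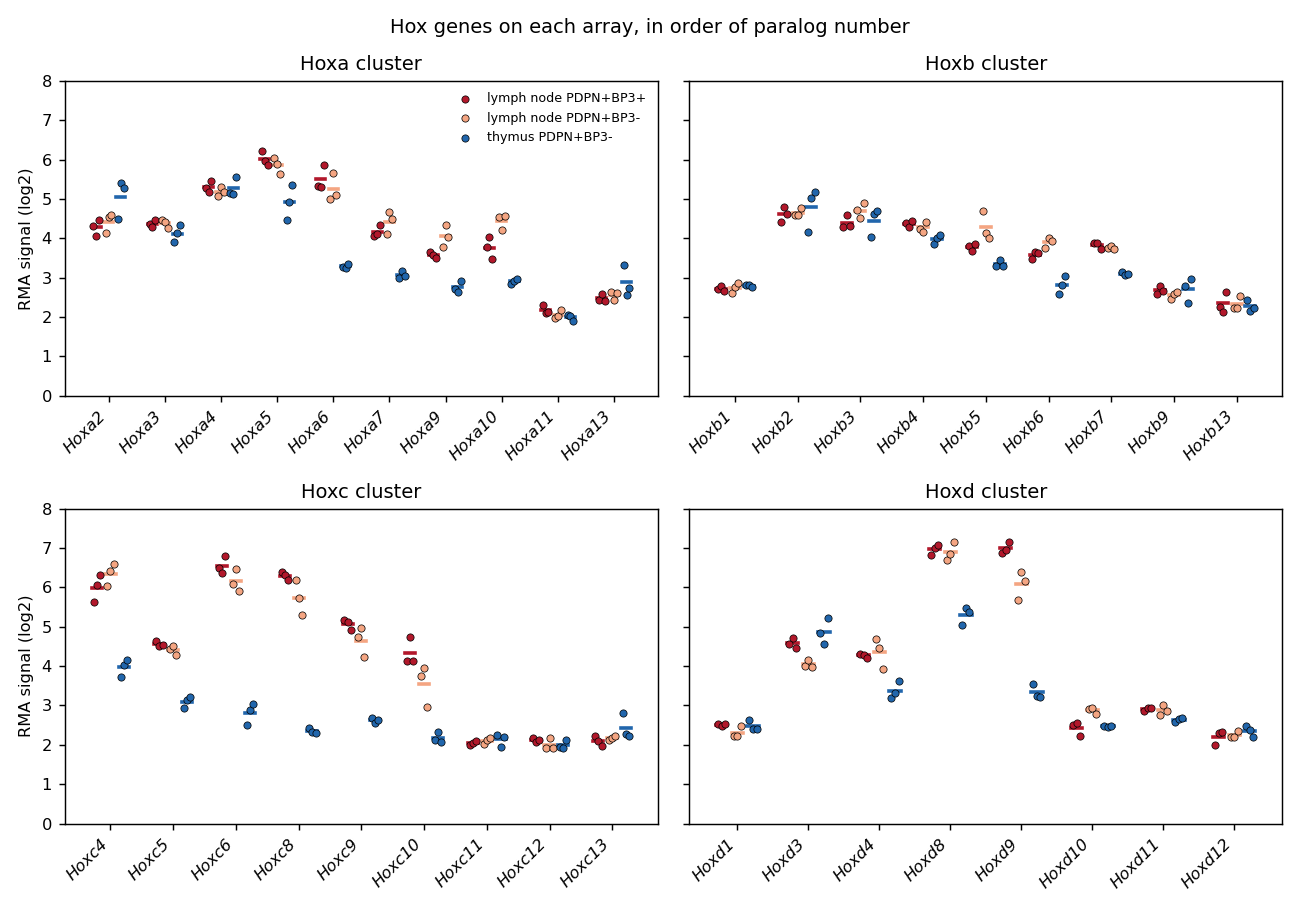
RMA signal (log2) of Hox genes on each of 9 arrays, by cluster and in order of paralog number; points are arrays and bars the mean of 3. The largest separation is in the middle paralogs such as Hoxc6, Hoxc8 and Hoxd9, where both lymph node populations are above thymus PDPN+BP3- cells.

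Among 68 other regional transcription factors of mesenchyme, 11 were higher and 21 lower (median -0.12). Foxf1, a forkhead factor of visceral mesenchyme, read 8.23, 8.24 and 8.24 against 4.46, 4.61 and 5.16, higher by 3.49 ± 0.20 (SE, adjusted p = 9.81e-10), and Tbx15, a T-box factor, 6.46, 6.63 and 6.25 against 3.31, 2.82 and 3.18, higher by 3.34 ± 0.14 (SE, adjusted p = 1.97e-11). Emx2 (2.23) and Lhx8 (1.89) were higher too. Tcf21, a basic helix-loop-helix factor of fibroblast progenitors, read 2.33, 2.28 and 2.59 against 7.36, 7.58 and 7.82, a difference of -5.19 ± 0.17 (SE, adjusted p = 1.1e-12). Wt1, a zinc finger factor of mesothelium and related mesenchyme, was lower, with a difference of -3.36 ± 0.13 (SE, adjusted p = 1.13e-11), and Tbx2 differed by -3.04. Foxf1 and Tbx15 were high in both lymph node populations (lymph node PDPN+BP3- means 6.91 and 6.29) and Tcf21 and Wt1 low in both (2.87 and 2.91).

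All 25 cell cycle genes were called higher (median 1.40), and 24 without thymus replicate 1. Tpx2, a spindle assembly factor, read 7.63, 7.67 and 7.70 against 4.43, 4.76 and 4.61, higher by 3.07 ± 0.14 (SE, adjusted p = 8.61e-11). Mki67, the proliferation antigen gene, read 6.91, 7.40 and 6.80 against 5.05, 5.67 and 5.26, higher by 1.71 ± 0.22 (SE, adjusted p = 2.05e-05). In lymph node PDPN+BP3- cells the means were 4.37 and 4.69, below the thymus means. Immediate early and stress genes, which enzymatic digestion can induce, had 4 of 22 higher, including Gadd45b (1.40) and Nr4a1 (1.40), and 2 lower, with Fos (0.04) and Jun (0.16), named after their values were seen, not passing. These counts were close to the shares over all genes, 19.4% higher and 9.14% lower. The count of higher in that list was 2 without any one lymph node PDPN+BP3+ array or thymus replicate 2, and after cyclic loess.

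Markers of other cell types were examined as lists. The T lineage list had 11 of 15 lower in the lymph node cells and none higher, and its mean signal was 3.28, 4.30 and 4.42 on the thymus arrays against 2.69, 2.82 and 2.77 on the lymph node PDPN+BP3+ arrays. Cd8a read 4.51, 6.60 and 6.71 on the thymus arrays and 3.52, 3.37 and 3.14 on the lymph node arrays, a difference of -2.60 ± 0.42 (SE, adjusted p = 0.000176). Thymus replicate 1 was lower than the other thymus arrays, and 10 of the 15 list members had a thymus mean above the table median against 1 on the lymph node side. The epithelial list had 8 of 16 lower and none higher, with mean signals of 3.18, 3.67 and 3.76 on the thymus arrays and 2.71 to 2.73 on the lymph node arrays, and without thymus replicate 1 it had 12 lower. Only 3 of the 16 had a thymus mean above the table median, and 1 a lymph node mean above it. Krt18 and Krt8 were lower, with differences of -3.67 ± 0.35 (SE, adjusted p = 5.58e-07) and -2.40 ± 0.34 (SE, adjusted p = 5.02e-05), and Foxn1, which defines thymic epithelium, differed by -0.72, a call lost without lymph node PDPN+BP3+ replicate 1 or thymus replicate 3 (adjusted p = 0.0559 and 0.0708 in the limma fit). Both Foxn1 means, 2.65 and 3.37, lay below the table median. Mesothelial genes had 6 of 8 lower, among them Wt1, but only 2 of the 8 had a thymus mean above the table median and 0 a lymph node mean above it. The B cell list had none of 9 called, the adipocyte and red blood cell lists none, the myeloid list 3 of 14 higher and 1 lower, and the endothelial list 5 of 18 higher and 3 lower. Over all genes 19.4% were higher and 9.14% lower, and the myeloid counts were close to these shares. The endothelial list had 3 higher without lymph node PDPN+BP3+ replicate 1 or 3. The myeloid list had 2 higher and 3 lower without thymus replicate 1, 2 lower without thymus replicate 2 and 2 lower after cyclic loess, so its direction moved with 1 array. Among the endothelial genes Sox18 (2.89) and Plvap (2.71) were higher and Tek (-1.53) lower, while Pecam1 (0.73) did not pass. The 3 higher myeloid members were Cd14, Cd68 (1.34) and Tyrobp (0.68). Tyrobp had an adjusted p of 0.0599 in the limma fit without thymus replicate 1 and 0.0593 without lymph node PDPN+BP3+ replicate 2. Several genes high in the lymph node cells, Timd4, Spic, Ctss and Cd14 (3.88), are also known from macrophages; the myeloid list mean was 3.02 to 3.13 on the lymph node arrays and 2.48 to 3.32 on the thymus arrays. Of the 14 list members 10 did not pass, among them Csf1r (0.14) and Adgre1 (-0.02). The 1 lower member was Ptprc (-1.16), a gene of leukocytes in general, with 3.14, 4.66 and 4.80 on the thymus arrays. The part of myeloid RNA in the differences of Timd4, Spic, Ctss and Cd14 was not tested. The part of T lineage, epithelial and endothelial RNA in the differences of Ccl25, H2-Aa, Glycam1 and Sele was not tested.

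**Figure D5:**
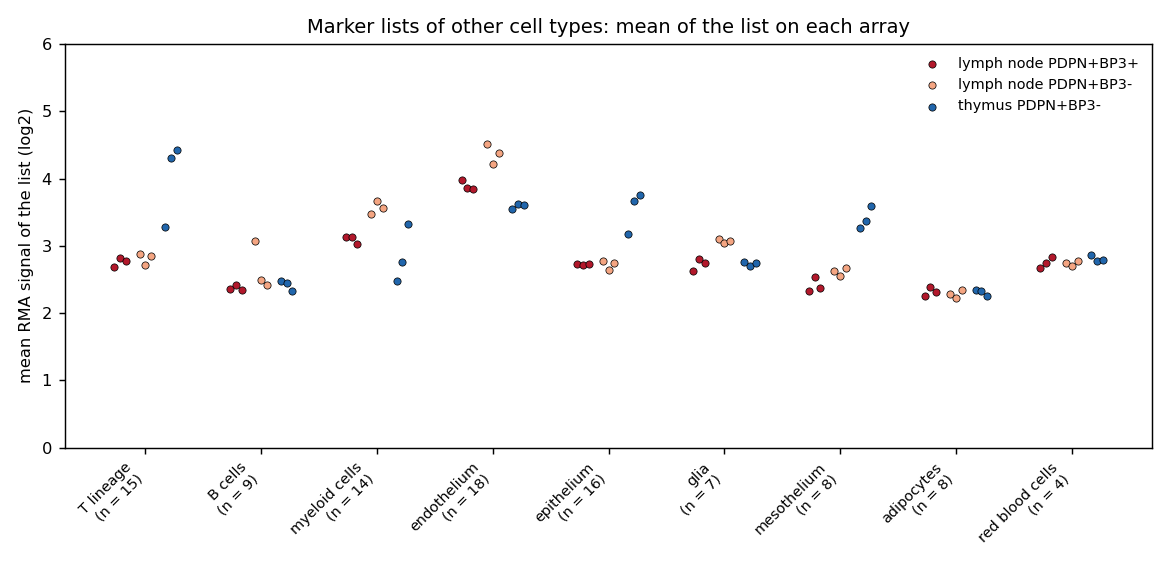
Mean RMA signal (log2) of marker lists of other cell types on each of 9 arrays; each point is the mean of the list on an array. T lineage, epithelial and mesothelial lists are highest on the thymus PDPN+BP3- arrays, and thymus replicate 1 is the lowest of the thymus arrays for each of these lists.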

How the data were processed

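The deposited values are log2 signals that the authors made by RMA in Affymetrix Expression Console, per the submitters' processing notes; the log base was inferred from the values, and a genome build is not given in the sources used here. RMA subtracts background, quantile-normalizes arrays and summarizes probes, so low signals are compressed. Of 24758 rows, 20844 carried 1 symbol, 1735 several and 2179 none; names came from GEO's platform annotation (20817 rows matched a current gene record, 0 symbols changed), and each gene took its row with the highest mean over 15 arrays, which left 18718 genes. limma 3.58.1 in R 4.3.3 fitted 1 mean per population to all 15 arrays (10 residual degrees of freedom) and tested lymph node PDPN+BP3+ minus thymus PDPN+BP3- at an adjusted p of 0.05 (Benjamini-Hochberg). The script was tested on simulated data for this comparison over 18718 genes and recovered 86% of changes of log2 size 1 and 36% of size 0.5. Far fewer genes were changed in the simulation than were called in the data, which makes the adjusted threshold stricter. These shares therefore check the script and do not measure the sensitivity of the comparison. Named genes were the sort antigens and markers, the 15 largest differences each way among non-overlapping called genes, and up to 5 called members each way of each list; called and highest members of the other-cell lists were also eligible, and predicted genes, receptor segments and small RNAs were not named. Members named outside this rule were named after their values were seen. The members and lists were chosen with earlier results of these data known. Replicates came from separate experiments per the labels, which do not say whether a replicate number is shared between populations. The main fit therefore did not pair samples by number. Alternatives covered scaling, variance model, filter, row choice, replicate block, threshold and leaving out each array.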

Additional observations from a re-analysis of the deposited data

Results flagged for a closer look

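Rows that carry several gene symbols were outside the 18718 genes tested, and 6 of them differed by at least 3 with an adjusted p under 0.05 in a separate limma fit of the 3914 rows without a single symbol. A signal in such a row cannot be assigned to one of its genes. The row shared by Gm1987 and the Ccl21 genes, which encode the CCR7 ligand CCL21, differed by 4.75 (lymph node 11.16, 11.08 and 11.18, thymus 6.55, 6.26 and 6.35, adjusted p = 2.72e-07). The C4a and C4b row differed by 4.33, and the Serpina1 rows by 4.01 and 3.2. The row of Zmynd15 and Cxcl16 differed by 3.04, and Cxcl16 had its own row as well. The row of Iftap and Rag1 differed by -3.33; Rag1 is a T lineage gene, and that list was higher on the thymus arrays.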

How the results depend on the processing

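The count of 5348 called genes stayed within 1.5 times of itself under each of the 17 alternatives. Genes higher were 2290 after cyclic loess and 2420 at an adjusted p of 0.01, and genes lower were 2861 with arrays centred on their medians; the cause was not tested. Leaving out each array in turn gave 4218 to 5459 called genes, 2552 to 3939 higher, 1418 to 1922 lower and 1698 to 1883 with a difference of at least 1. Same-numbered samples did not deviate together (correlations -0.073, -0.018 and -0.054), and the replicate block gave 5315 called genes. So few arrays cannot show whether equal numbers mark a shared experiment. Of 351 named genes called, 312 kept call and direction under every alternative, 23 were lost under at least 1 of 3 scalings, and none reversed. The lower mean lay below the table median for 171 of the 351, which limits the precision of their size. Counts of some gene lists moved by over 1.5 times: after cyclic loess insulin-like growth factor genes had 2 higher and 3 lower, immediate early genes 2 higher and prostanoid enzymes 5 lower.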

Other observations

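A list of imprinted genes was written after values were seen and is given as counts without a test. Of 29 listed genes 28 were measured, 2 were higher and 14 lower in lymph node PDPN+BP3+ cells, with a median difference of -0.54 against 0.04 over all genes. Igf2 differed by -5.97, Zim1 by -4.41, Plagl1 by -2.53 and Peg10 by -1.81, while Nnat (4.74) and Dlk1 (0.93) were higher. Without thymus replicate 1 Dlk1 was not called (0.70, adjusted p = 0.0808 in the limma fit), which left 1 higher and 13 lower, and without lymph node PDPN+BP3+ replicate 2 it was not called either (1 higher, 12 lower).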
